A study of Mus musculus with 48 samples.

Results

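The earliest time at which HD and LD murine erythroleukemia cells were compared was 6 h after an inducer of differentiation was added. All arrays with a title giving 6 h were taken, which gave 12 of the 48 arrays in all. HD and LD are single clones of the line T-3-Cl-2-0.fl, described by the labels as having high and low inducibility. Both clones were grown in RPMI1640 with 10% fetal calf serum. Both received the same drug for the same time, with 1 condition each for dimethyl sulfoxide (DMSO) at 1.0%, hexamethylene bisacetamide (HMBA) at 3.0 mM and trichostatin A (TSA) at 15 nM. Each condition was hybridised on 4 technical arrays that share 1 pair of RNA extracts, with HD as target RNA and LD as control RNA. Untreated cells were not analysed here, so a difference already present before the drug and a difference made within 6 h cannot be told apart. With 1 clone per inducibility, clone and inducibility cannot be told apart either.

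Murine erythroleukemia cells are red cell precursors arrested by a leukemia virus at about the proerythroblast stage. Chemical inducers lead them to stop dividing and to make globins, heme enzymes and red cell membrane proteins over several days. The first hours with an inducer come before commitment, the point after which the cells go on to mature even if the drug is washed out. TSA inhibits histone deacetylases, HMBA is a polar-planar inducer, and DMSO is the solvent with which induction of these cells was first described.

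The files listed between 19612 and 20581 cDNA clones per array at 6 h. Precision is limited because the 4 arrays of a condition are technical and share the same pair of RNA extracts. The files name each spot by a cDNA clone ID and do not pair it with a gene. None of the IDs was found in the gene table used here (0 matches), so no gene, pathway or cell type can be named, and the erythroid label could not be set against marker genes. Results are therefore given by clone ID for a few clones and otherwise by counts. In RNA of whole cultures, fewer cells of a type and less RNA per cell cannot be told apart.

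The direction HD over LD is likely and not settled. It rests on the column names, control and target, and on the labels, which give HD as the target of every array. After loess normalization of each array, log2(HD/LD) on arrays 1 and 2 correlated negatively with that on arrays 3 and 4 over clones. The correlation was -0.47 for DMSO, -0.30 for HMBA and -0.52 for TSA, and within either pair of arrays it was between 0.55 and 0.63. The labels give the same dye for HD on all arrays, whereas the design text speaks of dye swaps. The dimmest spots were brighter in the HD column on both arrays 1 and 2, and brighter in the LD column on both arrays 3 and 4, under each drug. Each condition's value is the mean of the mean of arrays 1 and 2 and the mean of arrays 3 and 4, and the counts that follow if arrays 3 and 4 are reversed in sign (turned) stand next to those of the main direction.

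At 6 h a small number of clones separated the lines. In the fit of all 12 conditions those lower in HD cells were more numerous and had larger ratios. In contrast, 4 other fits called more higher than lower clones. The counts were 172 against 88 with an offset of 50 and 95 against 55 without the dimmest 25% of clones. They were 256 against 196 with the 6 h conditions alone and 312 against 134 with a replicate block. When all 19498 clones measured at 6 h entered, the 6 h conditions alone gave 97 higher against 125 lower. Of 18494 clones tested in limma, 55 passed an adjusted p of 0.05 for the mean of the 3 drugs, which is 0.297%. Of these, 16 were higher in HD cells (0.0865%) and 39 were lower (0.211%). An unadjusted p under 0.05 was reached by 1450 clones (7.84%). The 16 higher clones had a median log2(HD/LD) of 0.49, from 0.44 to 1.58, and 4 of them differed at least 1.5-fold. The 39 lower clones had a median of -0.74, from -2.02 to -0.45, and 33 differed at least 1.5-fold. Over all tested clones the median absolute log2 ratio was 0.07, and the median half-width of a 95% confidence interval was 0.21.

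With arrays 3 and 4 turned, 4994 clones passed the same test, 2197 higher (11.9%) and 2797 lower (15.1%). Of the 16 higher clones, 5 were then called in the same direction and 3 in the opposite one. Of the 39 lower clones, 2 were called in the same direction and 3 in the opposite one. The median of the higher clones became 0.14 and that of the lower clones 0.04. Over 18494 clones the mean of arrays 1 and 2 had r = -0.68 with the mean of arrays 3 and 4, and 25.6% of clones had the same sign on both. Among the clones called in the main direction, the mean of arrays 1 and 2 was above 0 for 14 of the 16 higher clones and that of arrays 3 and 4 for 15, and both were below 0 for all 39 lower clones.

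**Figure D1:**
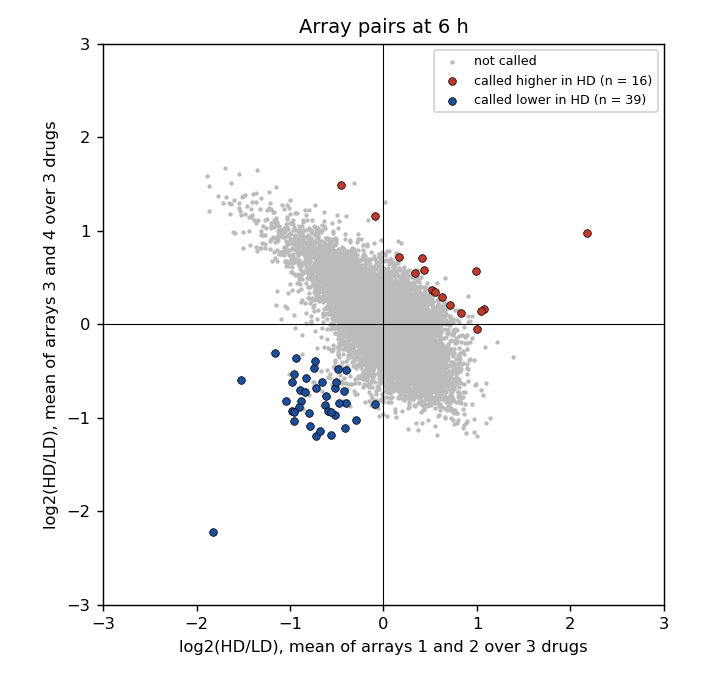
Each point is 1 of 18494 cDNA clones, with log2(HD/LD) at 6 h as the mean of arrays 1 and 2 over 3 drugs on the horizontal axis and the mean of arrays 3 and 4 on the vertical axis. Red points are the 16 clones called higher in HD cells and blue points the 39 called lower. The grey cloud runs from upper left to lower right (r = -0.68), and all 39 blue points lie below 0 on both axes.

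The lower clones were also the more uniform over arrays. Of the 39, 34 were below 0 on all 12 arrays, and the fewest arrays on which any of them was below 0 was 10. Of the 16 higher clones, 5 were above 0 on all 12 arrays, 3 were above 0 on at most 8, and the fewest was 6. In 3 higher clones and 0 lower clones, the array pairs lay apart by more than 2 times the ratio itself. Over the 17333 clones with a value on all 12 arrays, 103 were above 0 and 88 below 0 on every array (0.594% and 0.508%), and with arrays 3 and 4 turned 808 were above and 1287 below (4.66% and 7.43%). The call rests on the same arrays, so a like sign over arrays follows in part from the choice of clones.

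The called clones differed in brightness and in the array part that held them. The mean intensity of the higher clones lay at a median percentile of 31.9 among tested clones, and 7 of the 16 were among the dimmest 25%. The lower clones lay at a median percentile of 62.4, with 6 of 39 among the dimmest 25% and 11 among the brightest 25%. Part 2 of the array held 12 of the 16 higher clones and 14 of the 39 lower clones, against 45.0% of the tested clones. The IDs of the higher clones carried 15 plate numbers and those of the lower clones 34, with at most 2 clones on any plate number. What part brightness and array part had in the calls was not tested.

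Among the higher clones H3144G06 had the largest ratio. On arrays 1 to 4 its log2 ratio was 0.66, 2.58, 1.27 and 1.69 under DMSO and 2.55, 3.01, 1.54 and 1.03 under HMBA. The TSA arrays gave 2.30, 1.94, 0.72 and -0.36. Array 4 under TSA was the single array below 0, and under HMBA and TSA arrays 3 and 4 were lower than arrays 1 and 2. The mean was 1.58 ± 0.44 (SD, n = 3 drugs), a 2.98-fold excess, with a 95% confidence interval from 1.13 to 2.02 and an adjusted p of 0.00226 in limma. The clone was dim, at percentile 5.86 of intensity, with median intensities of 154.2 in HD and 62.0 in LD cells. On array 2 the LD intensity was only 4.2 under DMSO and 4.0 under HMBA. With an offset of 50 in both channels the ratio of H3144G06 was 0.94, below that interval (adjusted p = 0.00025 in limma). Without HMBA at 6 h its adjusted p was 0.0502, and the turned arrays gave 0.60 (adjusted p = 0.0327).

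H4004H01 came next among the higher clones and varied less between drugs than H3144G06. Its log2 ratio on arrays 1 to 4 was 0.58, 0.79, 0.75 and 1.07 under DMSO, 0.84, 1.07, 0.03 and 0.76 under HMBA. With TSA it was 1.80, 0.89, 0.81 and -0.02. Array 3 under HMBA and array 4 under TSA were near 0, and the other 10 arrays were above 0.5. The mean was 0.78 ± 0.099 (SD, n = 3 drugs), with an interval from 0.58 to 0.98 and an adjusted p of 0.00121. Without DMSO at 6 h the adjusted p was 0.0581, and the turned arrays gave 0.21 (adjusted p = 0.124).

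Among the lower clones H4016F12 stood furthest from 0. Its log2 ratio on arrays 1 to 4 was -1.29, -1.58, -2.70 and -2.25 under DMSO, -1.37, -1.83, -2.09 and -2.15 under HMBA. With TSA it was -2.84, -2.05, -2.67 and -1.44. All 12 arrays were below -1, and arrays 3 and 4 were lower than arrays 1 and 2 under DMSO and HMBA but not under TSA. The mean was -2.02 ± 0.20 (SD, n = 3 drugs), with an interval from -2.45 to -1.59 and an adjusted p of 0.000507. Turning arrays 3 and 4 gave 0.20 (adjusted p = 0.263).

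H3052F12 had the next largest deficit, and its arrays under TSA were split. Its log2 ratio on arrays 1 to 4 was -1.13, -1.17, -0.90 and -0.66 under DMSO, -1.52, -1.37, -0.81 and -1.16 under HMBA. With TSA it was -1.85, -2.07, -0.06 and -0.0033. Under TSA arrays 3 and 4 were at 0, while the other 10 arrays were all clearly below it. The mean was -1.06 ± 0.14 (SD, n = 3 drugs), with an interval from -1.38 to -0.74 and an adjusted p of 0.00382. The SD over drugs does not show this split, because each drug enters as a mean of its arrays. The adjusted p was 0.146 without DMSO and 0.0621 without HMBA at 6 h.

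**Figure D2:**
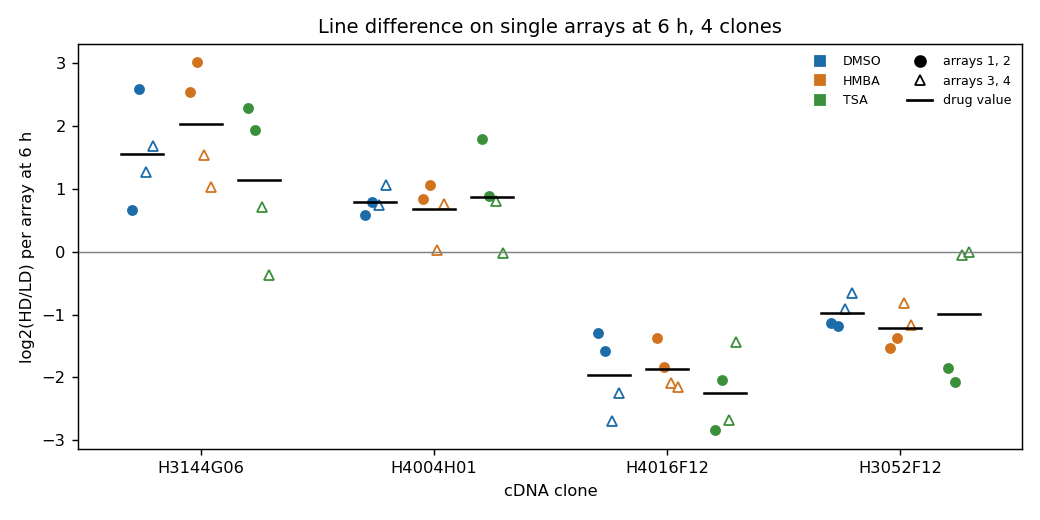
The vertical axis is log2(HD/LD) on single arrays at 6 h for 4 cDNA clones, with 4 arrays for each of DMSO, HMBA and TSA. Filled circles are arrays 1 and 2, open triangles arrays 3 and 4, and bars the value of the drug. H4016F12 is below -1 on every array, whereas the triangles of H3052F12 under TSA lie at 0.

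The 3 inducers gave the called clones the same direction. All 16 higher clones were above 0 and all 39 lower clones below 0 under each drug, a direction that the choice of clones by their mean fixes in part. The higher clones had a median of 0.45 under DMSO, 0.59 under HMBA and 0.48 under TSA. The lower clones had medians of -0.72, -0.86 and -0.65, and the medians over all tested clones were -0.0083, 0.0072 and -0.0036. The median SD over the 3 drugs was 0.13 for the higher and 0.17 for the lower clones. Over all 18494 clones the ratios were only loosely alike between drugs, with r = 0.13 for DMSO and HMBA, 0.22 for DMSO and TSA and 0.28 for HMBA and TSA. These r describe clones of different arrays but of the same HD and LD lines. With arrays 3 and 4 turned, r was 0.59, 0.46 and 0.70.

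**Figure D3:**
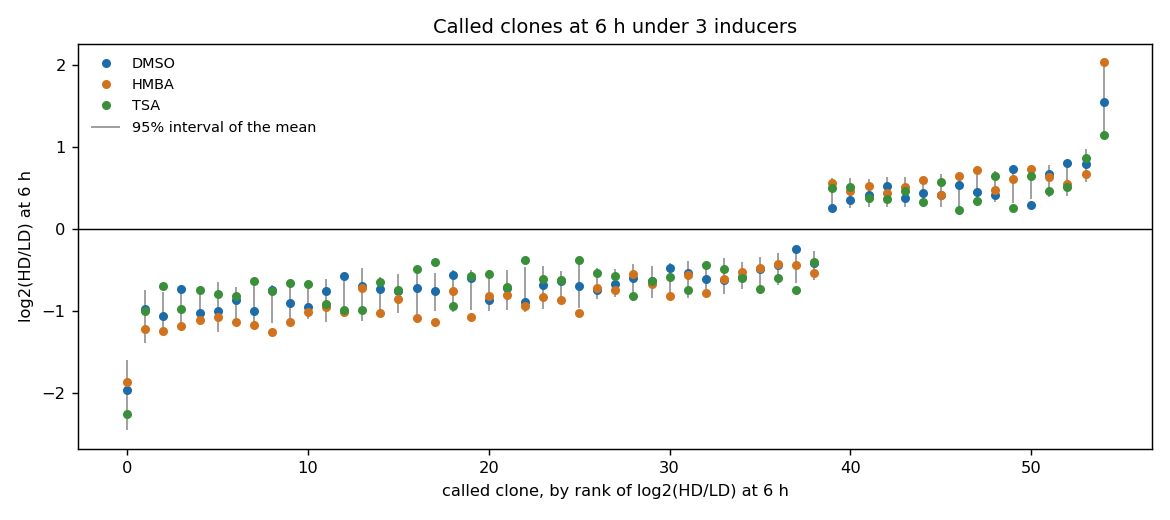
Each of the 55 called clones is 1 position on the horizontal axis, ordered by its log2(HD/LD) at 6 h, and the vertical axis is log2(HD/LD). Points are DMSO, HMBA and TSA at 6 h and grey lines the 95% confidence interval of their mean in limma. The 39 lower clones on the left are below 0 under every drug, and the 16 higher clones on the right are above 0.

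The number of calls rested on each of the 3 conditions. Without DMSO at 6 h the count of 55 became 19 (3 higher, 16 lower), without HMBA 6 (1 higher, 5 lower) and without TSA 23 (3 higher, 20 lower). Of these, 17, 6 and 22 were among the 55. Without array 2 or array 3 of every condition 36 clones were called, with 6 and 4 higher against 30 and 32 lower. Whether lower or higher clones were in excess depended on the fit. Beside the 4 fits with more higher clones, median centring gave 0 higher and 9 lower, and the authors' deposited log2 table gave 19 and 43. The replicate block fit has technical arrays as its units.

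Most clones called lower in HD cells at 6 h were called lower at the later times too, whereas few of the higher clones were called again. By sign of the mean of the drugs both sets mostly persisted. At 12, 24 and 36 h, 39, 36 and 34 of the 39 lower clones were below 0. Above 0 were 13, 16 and 15 of the 16 higher clones. Of the 39 lower clones, 29 were called lower at 12 h, 22 at 24 h and 30 at 36 h, where 0.173%, 0.173% and 0.433% of all clones were called lower. Of the 16 higher clones, 2, 4 and 2 were called higher at 12, 24 and 36 h, where 0.0216%, 0.324% and 0.698% of all clones were. The ratio was below 0 in all 9 later conditions for 30 of the 39 lower clones and above 0 in all 9 for 9 of the 16 higher clones. Later times were measured on other arrays, but all times share 1 estimate of the spread and the same pair of clones.

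The difference between 6 h and the later times was tested itself. No clone passed for 6 h minus the mean of 12, 24 and 36 h (0 calls in limma), and 1026 clones had an unadjusted p under 0.05 (5.55%). For that difference the 95% interval had a median half-width of 0.24. Single arrays fitted with the replicate block gave 43 clones, all lower at 6 h, and the fit without DMSO at 36 h called 22. Against single times, 0 clones passed for 12 h and 0 for 24 h in limma, with 401 and 1841 at an unadjusted p under 0.05. Against 36 h, 27 clones passed with a lower ratio at 6 h (0.146%) and 1 with a higher one (0.00541%). Of the 39 lower clones, 4 passed with a lower ratio at 6 h than at 36 h and 1 with a higher one. By value alone, 20 of the 39 were further below 0 at 36 h than at 6 h. Of the 16 higher clones 1 passed, with a lower ratio at 6 h than at 36 h, and that clone was H4004H01. Its log2 ratio was 0.80 at 6 h and 1.47 at 36 h with DMSO, 0.68 and 2.00 with HMBA, and 0.87 and 1.95 with TSA. H3144G06 did not pass that test (6 h minus 36 h 0.59, adjusted p = 0.981), and at 36 h it had 1.22 with DMSO, 0.19 with HMBA and 1.54 with TSA.

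**Figure D4:**
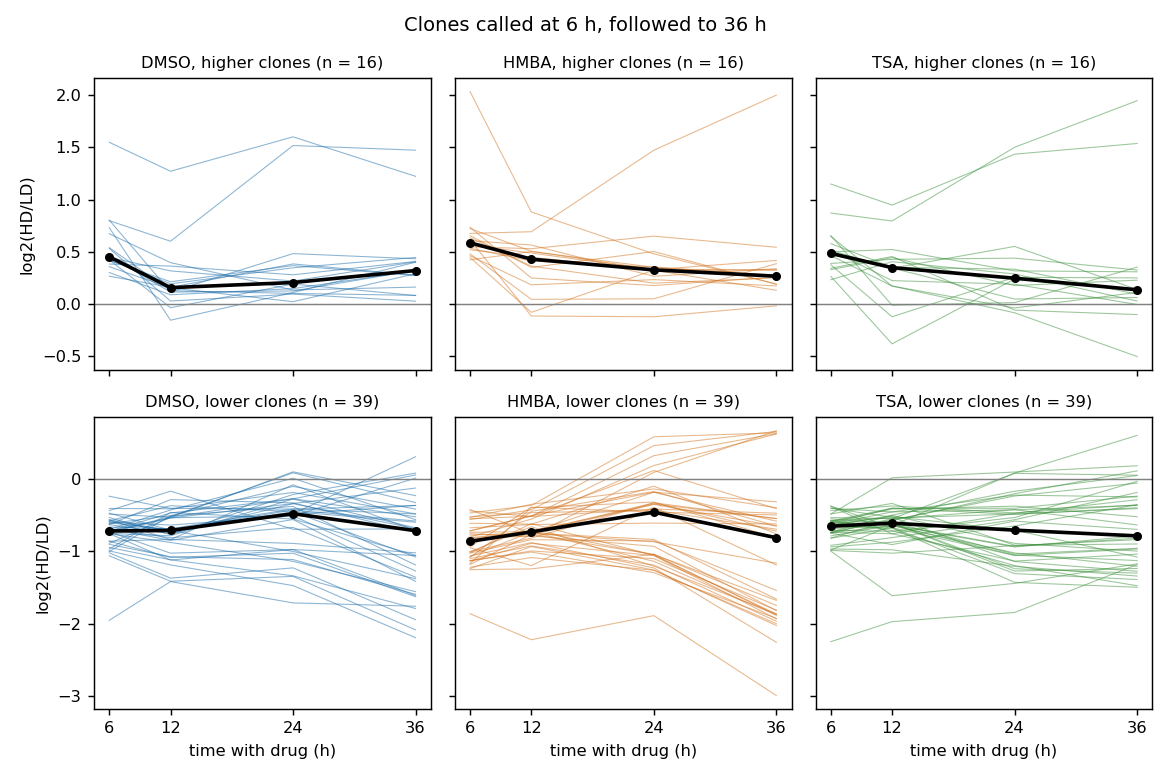
Thin lines are single cDNA clones and thick black lines their median, with hours with the drug on the horizontal axis and log2(HD/LD) on the vertical axis, for the 16 clones called higher at 6 h (top) and the 39 called lower (bottom). The medians of the lower clones stay between -0.86 and -0.46 in all 12 conditions, while single lower clones spread out by 36 h under HMBA, where 5 of the 39 were above 0.

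The lower clones took different courses after 6 h. They were grouped after their values had been seen, so the groups are described with no test. In 5 clones the ratio was above 0 under HMBA at 36 h. Their median under HMBA was -0.56 at 6 h, -0.51 at 12 h, 0.33 at 24 h and 0.64 at 36 h. Under DMSO it was -0.56 at 6 h and 0.06 at 36 h, and under TSA -0.74 and -0.03. HD cells thus had the higher signal under HMBA from 24 h, and the lines were near each other under DMSO and TSA at 36 h. H3032F06, from this group, had log2 ratios on arrays 1 to 4 at 6 h of -0.72, -0.71, -0.69 and -0.75 with DMSO, -0.67, -0.46, -1.12 and -0.94 with HMBA, and -0.74, -0.43, -1.05 and -0.61 with TSA. All 12 arrays were below 0, and those of HMBA and TSA were further apart than those of DMSO. Its mean of the 3 drugs was -0.74 ± 0.051 (SD, n = 3 drugs; adjusted p = 0.00949). It was 1 of the 4 clones whose ratio at 36 h exceeded that at 6 h in the test above (6 h minus 36 h -0.90, adjusted p = 0.046).

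In 13 other lower clones the mean ratio at 36 h was at least 0.5 below that at 6 h. For DMSO, HMBA and TSA in turn, their medians were -0.86, -1.07 and -0.67 at 6 h and -1.59, -1.88 and -1.24 at 36 h. All 13 were called lower at 36 h, and 1 passed the test of 6 h against 36 h. H3038C06 had log2 ratios on arrays 1 to 4 of -1.13, -1.05, -1.06 and -1.003 with DMSO at 6 h, of -0.88, -1.17, -1.24 and -1.66 with HMBA and of -0.71, -0.81, -0.52 and -0.71 with TSA. All 12 arrays were below -0.5, with the widest spread under HMBA. By 36 h it had reached -2.09 with DMSO, -2.03 with HMBA and -1.13 with TSA, and 6 h minus 36 h was 0.75 (adjusted p = 0.0834). The remaining 21 lower clones did neither.

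The clones of the first 2 groups resembled one another over the 12 conditions. Pairwise r was between 0.90 and 0.98 among the 5 clones and between 0.46 and 0.99 among the 13, with medians of 0.94 and 0.86. Among the remaining 21 it was between -0.62 and 0.89, with a median of 0.31. The points of these correlations share arrays, and the groups were chosen by their course. The 5 clones carried 5 plate numbers and the 13 carried 11. Whether some of them are cDNAs of 1 transcript was not tested.

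For each inducer by itself there was 1 pair of RNA extracts and no test. Clones were counted if they differed at least 2-fold and had the same sign on all 4 arrays. DMSO gave 1 higher (0.00515%) and 4 lower clones (0.0206%), HMBA gave 2 higher (0.0108%) and 20 lower (0.108%), and TSA gave 0 higher (0%) and 13 lower (0.07%). The turned arrays gave 43 higher (0.221%) and 135 lower clones (0.695%) for DMSO, 14 (0.0753%) and 220 (1.18%) for HMBA, and 104 (0.56%) and 436 (2.35%) for TSA. At least 1.5-fold there were 32 higher (0.165%) and 53 lower clones (0.273%) for DMSO, 51 (0.274%) and 97 (0.522%) for HMBA, and 20 (0.108%) and 79 (0.425%) for TSA. With the arrays turned the 1.5-fold counts were 579 (2.98%) and 669 (3.44%) for DMSO, 486 (2.61%) and 1015 (5.46%) for HMBA, and 1095 (5.9%) and 1719 (9.26%) for TSA. With all 4 arrays, lower clones were more numerous than higher ones under each drug. Under DMSO this did not hold when array 1 or array 2 was left out. Without array 1 there were 6 higher and 6 lower clones under DMSO, without array 2 there were 7 and 2, without array 3 there were 4 and 7, and without array 4 there were 3 and 7. In all, these counts were between 9 and 12, and those of HMBA between 23 and 32. Under TSA they were between 16 and 22, with 22 (5 higher, 17 lower) without array 4. Some of that rise follows from asking for the same sign on 3 arrays in place of 4.

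The lists of the 3 drugs overlapped among the lower clones. H4016F12 was the 1 lower clone found under all 3 drugs at 2-fold, and 18 were at 1.5-fold, which is 34.0% of the DMSO list, 18.6% of the HMBA list and 22.8% of the TSA list. Among higher clones 0 were shared by all 3 drugs at either limit. With arrays 3 and 4 turned, 47 lower clones were shared at 2-fold and 243 at 1.5-fold (36.3%, 23.9% and 14.1% of the lists), and 0 and 53 higher clones were. H3087C06 was 1 of the 2 higher clones under HMBA, with log2 ratios of 1.21, 1.38, 0.74 and 0.87 on its arrays 1 to 4. The condition value was 1.05 under HMBA, -0.12 under DMSO and 0.45 under TSA. On its TSA arrays 1 to 4 it had 1.23, 1.09, -0.43 and -0.08, with opposite signs on the array pairs. Its mean of the 3 drugs did not pass the test (adjusted p = 0.726).

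HMBA and TSA differed in how their lower clones related to the mean of the drugs. Of the 20 lower clones under HMBA, 17 were also called lower in the mean, and all 4 of the DMSO list were among the 20. Of all tested clones 0.211% were called lower in the mean. Each drug's value at 6 h enters that mean, so overlap of its list with the calls follows in part. The 16 clones that passed the 2-fold limit under HMBA alone still had a median of -0.73 under DMSO and -0.64 under TSA at 6 h, and of -1.78 under HMBA at 36 h. H4074B05 had the lowest ratio of these, with -1.25 under HMBA against -0.74 under DMSO and -0.75 under TSA. Of the 13 lower clones under TSA, 1 was called in the mean, and that was H4016F12. The difference between drugs was not tested at 6 h, where each drug has 1 pair of extracts.

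The other 12 clones that were lower under TSA had smaller deficits under the other inducers and a changing ratio over time. They were chosen for their ratio under TSA at 6 h, where their median was -1.24, from -1.59 to -1.01. Clones past the 2-fold limit under DMSO or HMBA too were left out. Smaller deficits under these drugs, and ratios nearer 0 at later times, follow in part from this choice. On single TSA arrays they lay between -1.96 and -0.38, with a median of -1.14 on arrays 1 and 2 and -1.43 on arrays 3 and 4. At the same time the median was -0.36 under DMSO and -0.39 under HMBA, below 0 for 12 and 11 of the 12 clones. All 4 arrays were below 0 in 7 of the 12 under DMSO and in 8 under HMBA. Later under TSA it was -0.19 at 12 h, 0.34 at 24 h and 0.80 at 36 h, where all 12 were above 0. Under HMBA it was -0.20 at 12 h, -0.31 at 24 h and 0.57 at 36 h, again with 12 of 12 above 0. Under DMSO it was 0.0096 at 24 h and 0.08 at 36 h. By the medians, the order of the lines at 36 h under TSA and HMBA was thus opposite to that at 6 h. Under HMBA the 12 clones ranged from -0.58 to 0.010 at 6 h and from 0.0033 to 0.95 at 36 h. Among all conditions TSA at 36 h had the widest spread of ratios over clones (SD 0.32). There 618 clones were at least 1.5-fold higher and 380 lower, with the same sign on all 4 arrays. In limma 0 of the 12 were called, either in the mean at 6 h or in 6 h minus 36 h. All 12 had an unadjusted p under 0.05 in both, against 1450 and 970 of 18494 clones, which follows in part from choosing them by their ratio under TSA at 6 h. Turning arrays 3 and 4 gave them a median of 0.14 there.

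**Figure D5:**
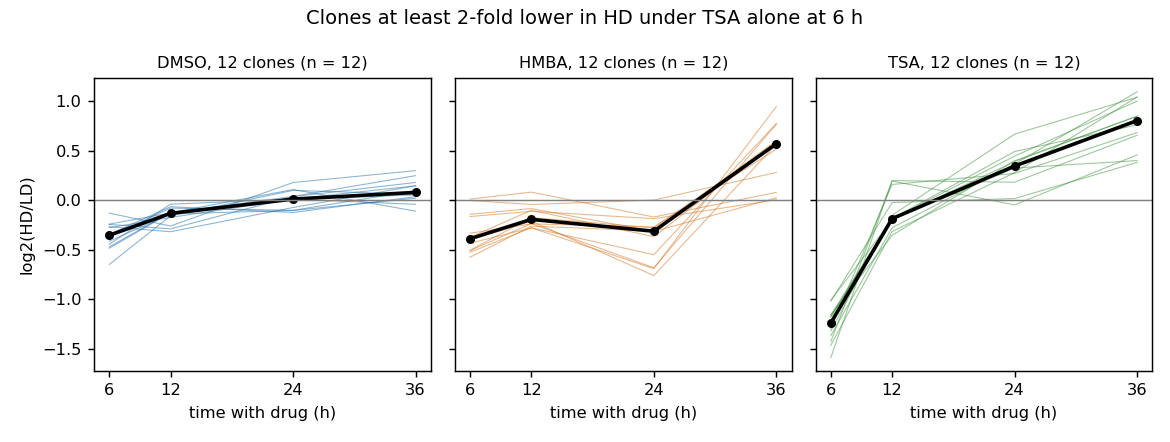
Thin lines are the 12 cDNA clones at least 2-fold lower in HD cells under TSA but not under DMSO or HMBA at 6 h, and thick black lines their median, with hours with the drug on the horizontal axis and log2(HD/LD) on the vertical axis. Under TSA the median goes from -1.24 at 6 h to 0.80 at 36 h, and under HMBA it is above 0 at 36 h alone. The value at 6 h under TSA chose the clones.

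H3112E03 and H3079C09 were the lowest of these 12 under TSA. H3112E03 had -1.76, -1.96, -1.38 and -1.26 on arrays 1 to 4 under TSA at 6 h, and H3079C09 had -1.26, -1.38, -1.69 and -1.55. Both were below -1 on all 4 arrays, with no split between the array pairs of the kind seen for H3052F12. At 6 h H3112E03 was -0.27 with DMSO and -0.17 with HMBA, and at 36 h 0.65 with TSA. The same values of H3079C09 were -0.65, -0.53 and 1.04. On arrays 1 to 4 under DMSO at 6 h H3112E03 had 0.06, 0.23, -0.68 and -0.68, with opposite signs on the array pairs.

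The level of each line was followed by splitting the ratio around a mean intensity that was quantile-normalized between arrays. On this log2 scale the 12 clones had a median level in LD cells of 14.18 under TSA at 6 h, against 13.15 under DMSO and 13.28 under HMBA. In HD cells it was 12.88, 12.72 and 12.95. Over all tested clones the medians under TSA, DMSO and HMBA at 6 h were 9.10, 9.19 and 9.11 in LD cells. In HD cells they were 9.09, 9.19 and 9.10. Clone by clone, the level in LD cells under TSA was above that under DMSO in 12 of 12, by a median of 0.80, and above that under HMBA in 10 of 12, by a median of 0.61. In HD cells it was below that under DMSO in 8 of 12, with a median difference of -0.19, and below that under HMBA in 9 of 12, with -0.30. From 6 to 12 h under TSA the level in HD cells went up in 12 of 12, with 6 h minus 12 h at a median of -0.82, and that in LD cells was lower at 12 h in 11 of 12, by 0.36. The medians over all tested clones at 12 h under TSA were 9.14 in HD and 9.15 in LD cells. The share of all clones that moved in the same way is not given here. The levels split the ratio by which the 12 clones were chosen, so a high LD and a low HD level under TSA at 6 h are fixed in part. The 39 lower clones of the mean also had higher median levels under TSA than under DMSO at 6 h, with 11.03 against 9.71 in LD and 10.28 against 9.02 in HD cells. These are levels in 1 extract per line and condition, with no test.

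The 12 clones were bright and alike. Their intensity lay between percentiles 66.2 and 98.3, and 7 were in the brightest 5%. All 12 were on part 1 of the array, which held 51.3% of the listed clones, and their IDs carried 8 plate numbers with at most 3 clones on any of them. Over the 12 conditions their pairwise r was between 0.76 and 0.99, with a median of 0.93, over points that share arrays. Whether some of the 12 are cDNAs of 1 transcript was not tested, so counts over them need not be of separate transcripts. Over all clones the mean of arrays 1 and 3 under TSA at 6 h had r = -0.008 with that of arrays 2 and 4, against 0.30 under DMSO and 0.42 under HMBA. What part the array part, brightness or the spread of the TSA arrays had in these 12 clones was not tested.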

How the data were processed

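Each array was deposited as 2 parts that give, per the file headers, an intensity of every listed cDNA clone in a control and a target column. No background or flag column accompanied the deposited intensity values, and 0 of them were at or below 0, so they were used without further background correction. The authors' deposited log2 table of the same arrays served as an alternative. Its columns had r between 0.987 and 0.999 with the ratios computed here at 6 h, in the same direction, and medians between -0.012 and 0.011. The submitters' image analysis and normalization are not given in the sources used here.

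Loess curves (span 0.3, 4 iterations) against mean log2 intensity were subtracted from log2(HD/LD), separately in each array part. Each condition then took the average of 2 means, 1 for arrays 1 and 2 and 1 for arrays 3 and 4. All 12 conditions of the series (3 drugs, 4 times) entered 1 limma model with additive effects of drug and time, which leaves 6 residual degrees of freedom, moderated by empirical Bayes (limma 3.58.1, R 4.3.3). The 18494 clones with a value in both array pairs of all conditions were tested two-sided, with Benjamini-Hochberg adjustment and a threshold of 0.05. Replicates within a condition are technical, so the p-values measure the spread between conditions left after drug and time, not that between cultures or clones. The fit was tested on simulated condition values that were independent of one another. That test did not cover the opposed array pairs or the loess step. Figures were drawn with matplotlib 3.10.9.

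Array numbers were taken to pair arrays by orientation. Same-numbered arrays of different 6 h conditions deviated together (r between 0.36 and 0.55), whereas the differences between arrays 1 and 2 and between arrays 3 and 4 did not (r between -0.08 and 0.03).

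The samples, clone lists and tests were chosen with earlier results of these data known. Clones could be named by absolute log2 ratio, up to 12 in each direction among called clones with the same sign under all 3 drugs, and up to 5 for a single drug among those past the 2-fold limit whose 4 arrays had 1 sign. Because the IDs carry no gene, a few of each are printed. H3032F06, and the use of H3038C06 for the later course, were chosen after their values were seen. Planned lists of erythroid, heme, chromatin and cell type marker genes were not used, because 0 of the 22171 clone IDs matched a gene.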

Additional observations from a re-analysis of the deposited data

Results flagged for a closer look

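Under each drug at 6 h, the 4 arrays of 13 clones, the 10 named in the text and 3 others, were examined for 1 array apart from the others. Of 39 such sets of arrays 2 had one, where chance alone gives 1.95 if the 4 arrays vary alike and independently. Because the arrays fell into opposed pairs, the number that chance gives here is not known. H4074B05 under HMBA had a log2(HD/LD) of -0.72 on array 2, while its other arrays lay between -1.45 and -1.39. H3079C09 under HMBA had -0.70 on array 2, while its other arrays lay between -0.48 and -0.45. Both were array 2 of HMBA, and both arrays had the same sign as the others.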

How the results depend on the processing

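The count of 55 clones at 6 h became 4994 with arrays 3 and 4 turned, 9 with median centring, 260 with an offset of 50 and 150 without the dimmest 25% of clones. The authors' deposited table gave 62 and a fit without a drug term 50. It ranged from 36 to 53 without 1 array number, and from 6 to 23 without 1 of the 6 h conditions. The 3 conditions at 6 h alone gave 452 (256 higher, 196 lower), or 222 (97 higher, 125 lower) when all 19498 clones measured there entered. With the array number as a replicate block, single arrays gave 446 clones at 6 h and 43 for 6 h minus the later times, at a correlation of 0.077 within a condition. That fit takes technical arrays as units, so its counts do not come from more independent samples. Of the 55, 52 were also called by the blocked fit, 52 with the authors' deposited values and 9 with median centring.

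For 6 h minus the later times the count was 0 in the other alternatives, except 22 without DMSO at 36 h (range 0 to 22 over left-out conditions, 0 over left-out arrays). Turning arrays 3 and 4 moved the counts under DMSO, HMBA and TSA from 5, 22 and 13 to 178, 234 and 540, and a limit of 1.5-fold to 85, 148 and 99. An offset of 50 gave 2 under DMSO and 10 under HMBA. Leaving out 1 array gave 9 to 12 under DMSO and 16 to 22 under TSA. H4016F12 changed sign when arrays 3 and 4 were turned, to 0.20 (adjusted p = 0.263 in limma). Its array pairs had mean ratios of -1.83 (arrays 1 and 2) and -2.22 (arrays 3 and 4) at 6 h. Turned, these nearly cancel, so the sign follows from the gap between the pairs. Under median centring H3144G06, H4004H01 and H3052F12 lost their calls (adjusted p 0.418, 0.07 and 0.155) with ratios of 1.78, 0.73 and -1.10, and H4016F12 did not. The cause of these changes was not tested. With no background values, the limit that signal over background sets on the dim clones is unknown.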
